A study of Rattus norvegicus with 9 samples.

Results

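Expression of complement components and regulators was examined in rat prostates. They were 37 genes listed by symbol, and a probe was assigned to a gene if its RefSeq accession belonged to that symbol. Probes were matched for 33 of the 37 genes (38 probes), while C4b, C5, C7 and C8g had no matched probe. The whole array held 26905 genes or unnamed accessions. Probes of C9, Masp2, Mbl1, Mbl2 and Crp were too dim for testing in each comparison. The remaining 28 genes were tested in at least 1 comparison and 26 of them in all 3, and 23 were well above background on all 9 arrays.

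Complement is a cascade of plasma proteases and binding proteins, which is started by antibodies and other ligands of C1q (classical pathway), by ficolins and mannose-binding lectins (lectin pathway), or by spontaneous activation of C3 amplified by factor B (alternative pathway). All pathways form convertases that cleave C3 and C5, which releases the anaphylatoxins and starts the membrane attack complex. Host cells are protected by regulators in plasma (factor I, C4b-binding protein, clusterin, vitronectin) and on membranes (Cd46, Cd55, Cd59). Most plasma components are made in liver, but macrophages, fibroblasts and epithelia make some of them locally, and clusterin is known in rat prostate as a message that rises when androgen is withdrawn.

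The prostates were from male Sprague Dawley rats, which were 6 weeks old when purchased, with 3 arrays for each of 3 groups. The sham group had been operated without castration and received solvent and vehicle. The BPH group (benign prostatic hyperplasia) had been castrated and received dihydrotestosterone (DHT, 3 mg/kg subcutaneously per day for 4 weeks) and vehicle, so that castration and DHT cannot be told apart in this model. The BPH+ghrelin group received the same, and additionally ghrelin (20 nmol/kg per day by mouth) during the last 2 weeks. Ghrelin is a peptide hormone of the stomach. The methods and another passage of the study differ in the dose and route of ghrelin, and those of the methods are given here. The study kept more rats per group than were arrayed, and it does not say which ones were used. There was no group with ghrelin and without BPH. As no label says how tissues were collected for each array, p values measure the spread between these arrays.

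All levels below are log2 signals after quantile normalization over the 9 arrays, and a difference of 1 on this scale is a 2-fold difference. Levels of different genes cannot be compared, because probes differ in brightness. Sham replicate 2 was the dimmest array, with 61.3% of its probes well above background, and the others had at least 69.5%. The arrays had 3 scan dates in their headers, and arrays with the same scan date are called a slide here. Whether they lay on the same physical slide was not checked. Slide 1 held the 3 BPH arrays and BPH+ghrelin replicate 1, slide 2 held the remaining BPH+ghrelin arrays and sham replicates 1 and 2, and sham replicate 3 was the single array used from slide 3. In each group 1 array had values between those of its other 2 arrays at most probes, and this was also seen in the complement genes. Sham replicate 3 did so in 20 of 26 genes, BPH replicate 2 in 17, and BPH+ghrelin replicate 2 in 19. Independence of these 3 arrays was not tested, and counts of complement genes called are also given without them. In BPH+ghrelin against BPH, 0 of 19747 genes were called without them, so calls of cell markers in this comparison were lost as well. For the other comparisons, calls of cell markers were not refitted gene by gene. Markers of rat prostate were present, as Andpro was at 16.91 to 17.03 and Pbsn (probasin, an androgen-dependent secretory protein) at 13.11 to 16.41 on the 9 arrays. Genes of seminal vesicle and coagulating gland were also present, with a summed signal of 90188 to 157597 in sham, 713 to 28272 in BPH and 545 to 3881 in BPH+ghrelin. Of 9 hepatocyte genes, Alb, Fga, Fgb, Fgg and Ahsg were well above background on 0 of 9 arrays, whereas Tf and Ttr were so on 9, Serpina1 on 6 and Apoa1 on 3.

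Most complement genes had lower values in the ghrelin group than in BPH, and 2 of 27 were called. Compared to BPH, 24 of 27 genes tested were lower in BPH+ghrelin and 3 were higher, while 48.3% of all 19747 genes tested were lower. The median log2 difference of the complement genes was -0.58, compared to 0.02 for all genes. It was -0.35 without BPH+ghrelin replicate 1 and -0.27 with normexp background correction. In limma with adjustment over all genes tested, 2 complement genes were called, C1qa and Cfhr4, and both were lower. The share called among all genes was 1.48%, and 0.987% were called lower. In 14 of the 27 genes every BPH+ghrelin array was below every BPH array, compared to 19.3% of all genes, and in 1 gene (Masp1) every BPH+ghrelin array was above, compared to 19.9%. An unadjusted p under 0.05 was found with lower values in 12 genes (10.4% of all genes) and with higher values in 1 (10.7%). C3ar1 passed the filter through the BPH arrays alone, and without it 23 of 26 genes were lower (median -0.58), 13 of them without overlap, and 11 at an unadjusted p under 0.05. With the 3 arrays of intermediate values left out, 0 genes were called, 24 of 27 were still lower (23 of 26 without C3ar1), and 6 had lower values at an unadjusted p under 0.05 (5 without C3ar1). In whole tissue, fewer cells of a type and less RNA per cell cannot be told apart.

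In BPH, 19 of 27 complement genes were higher and 8 lower than in sham (46.3% of all genes were lower), with a median log2 difference of 0.27 compared to 0.04 for all 19548 genes tested. It was 0.12 without sham replicate 1 and 0.14 with normexp. One complement gene was called, Cfi, which was lower, and the share called among all genes was 4.34%. Without overlap between both groups were 8 genes, compared to 31.3% of all genes. Without the 3 intermediate arrays, 0 genes were called. Compared to sham, 21 of 27 genes were lower in BPH+ghrelin (45.6% of all genes), with a median log2 difference of -0.43 compared to 0.04 for all 19195 genes tested. It was -0.26 without sham replicate 2 and -0.23 with normexp. Here, Cfi, Cfhr4 and Cd59 were called lower and C4bpb higher, at a share called of 6.29%, and 9 genes did not overlap, compared to 30.4% of all genes. Without the 3 intermediate arrays, 0 genes were called in this comparison as well. These comparisons share groups and are not independent of each other.

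Per array, the median deviation of 26 complement genes from their mean over 9 arrays was -0.41, -0.31 and -0.10 in BPH+ghrelin, 0.27, 0.21 and 0.20 in BPH, and 0.01, 0.24 and 0.01 in sham. The 3 BPH+ghrelin arrays were below the 6 others, with 23, 21 and 16 of 26 genes below their mean. On slide 1, where BPH+ghrelin replicate 1 can be compared with the 3 BPH arrays, 23 of 26 genes (leaving out C3ar1) were lower with a median of -0.72, and all 26 had the direction of the full comparison. With slide as a block the comparison rests on this array, and 0 genes were called. On slide 2, BPH+ghrelin replicates 2 and 3 were lower than sham replicates 1 and 2 in 17 of 27 genes (median -0.37), and 23 genes had the direction of the full comparison. No slide held both BPH and sham arrays.

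**Figure D1:**
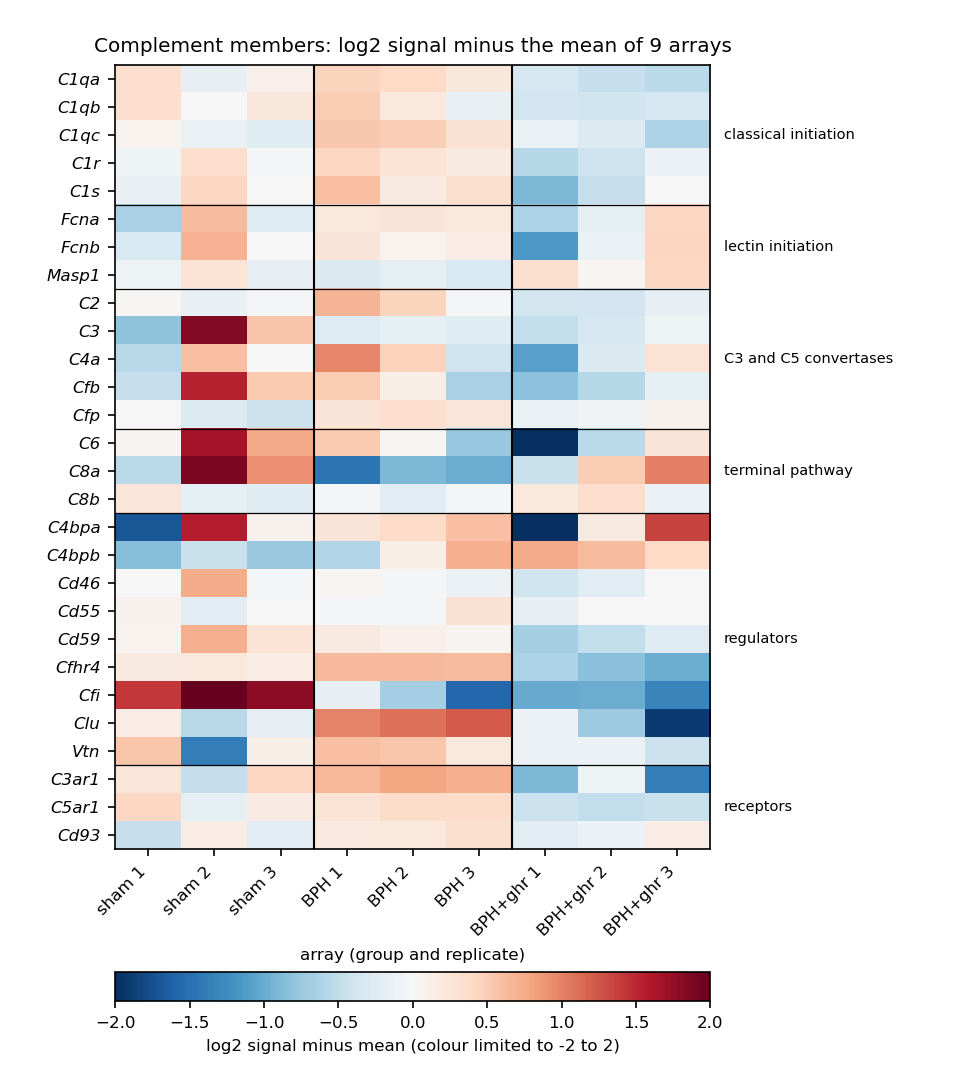
Log2 signal of 28 complement genes (rows, grouped by role) on 9 arrays (columns), as the difference from the mean of each gene over the 9 arrays, with blue for lower and red for higher values and the colour limited to -2 to 2. The 5 genes of the classical pathway (C1qa to C1s) were lower on each BPH+ghrelin array than on each BPH array, Cfi was high on the 3 sham arrays only, and C3, Cfb, C6 and C8a were highest on sham replicate 2.

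Genes that start the classical pathway were C1qa, C1qb and C1qc, which encode the 3 chains of C1q, the part that binds ligands, and C1r and C1s, which encode its proteases. In the rat genome C1qb, C1qc and C1qa are neighbours, and so are C1r and C1s. All 5 had lower levels with ghrelin than in BPH without overlap (19.3% of all genes did), with a median log2 difference of -0.78. Of these 5, 1 was called, compared to 0.987% of all genes called lower. All 5 were also lower than in sham, 3 of them without overlap (30.4% of all genes in either direction), and 0 were called. In BPH against sham all 5 had higher values and 0 were called.

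C1qa was at 10.59, 10.09 and 10.35 in sham, at 10.70, 10.66 and 10.48 in BPH, and at 9.92, 9.79 and 9.72 in BPH+ghrelin. The 3 BPH+ghrelin arrays were below the 6 others, while BPH and sham overlapped. The difference between BPH+ghrelin and BPH was -0.80 (standard error 0.15, 1.74-fold lower, limma, adjusted p 0.0491, n = 3 arrays per group). This call was lost when any 1 of the 6 arrays was left out, with differences of -0.87 to -0.76 (adjusted p 0.0534 without BPH replicate 3, 0.0878 and 0.199 without BPH+ghrelin replicates 1 and 2, 0.138 without BPH+ghrelin replicate 3, and 0.156 and 0.232 without BPH replicates 1 and 2). Within slide 1 it was -0.70. Compared to sham, C1qa in BPH+ghrelin was 1.45-fold lower (difference -0.54, standard error 0.15, limma, adjusted p 0.0771), and without sham replicate 2 it was called, at a difference of -0.66.

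C1qb was at 11.64, 11.29 and 11.52 in sham, at 11.82, 11.51 and 11.16 in BPH, and at 10.92, 10.90 and 10.95 in BPH+ghrelin. The latter 3 values were close together and below the others. Their difference to BPH was -0.57 (standard error 0.18, 1.48-fold lower, limma, adjusted p 0.139) and their difference to sham was -0.56 (adjusted p 0.106). C1qc was at 7.54, 7.33 and 7.22 in sham, at 7.99, 7.95 and 7.77 in BPH, and at 7.32, 7.19 and 6.85 in BPH+ghrelin. BPH was highest without overlap, and BPH+ghrelin overlapped with sham. The difference of BPH+ghrelin to BPH was -0.78 (standard error 0.16, 1.72-fold lower, limma, adjusted p 0.0578), and that of BPH to sham was 0.54 (1.46-fold higher, adjusted p 0.0896), which was called without sham replicate 1, at 0.63. With slide as a block, the difference of C1qc in BPH to sham was 0.17.

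C1r was at 8.75, 9.20 and 8.81 in sham, at 9.25, 9.12 and 9.02 in BPH, and at 8.27, 8.42 and 8.73 in BPH+ghrelin. C1s was at 9.69, 10.25 and 9.84 in sham, at 10.44, 10.01 and 10.16 in BPH, and at 8.94, 9.38 and 9.82 in BPH+ghrelin. In both genes BPH+ghrelin was below BPH without overlap, BPH+ghrelin replicate 3 was the nearest to the other groups, and sham replicate 2 was the highest sham array. Compared to BPH, C1r was 1.58-fold lower (difference -0.66, standard error 0.17, limma, adjusted p 0.0980) and C1s was 1.77-fold lower (difference -0.82, standard error 0.25, limma, adjusted p 0.131).

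Macrophages are a main source of C1q in tissues, and most macrophage markers had lower values in the ghrelin group as well. All 11 macrophage markers had a probe and 9 of them were well above background on all 9 arrays, while Msr1 was so on 5 and Marco on 3 arrays. Compared to BPH, 9 of 10 markers tested had lower values in BPH+ghrelin, with a median log2 difference of -0.56, and 8 of the 9 that were well above background on all arrays did (median -0.54, Mrc1 called), while Csf1r was higher (0.32). Msr1 passed the filter through the BPH arrays, so its call gives no support. In BPH against sham, 6 of the 9 had higher values (median 0.12), of which Adgre1 was called (1.18, limma, adjusted p 0.0434). The summed signal of the 11 markers was 43632 to 47537 in sham, 48285 to 61370 in BPH and 40005 to 53653 in BPH+ghrelin, which overlapped, and Lyz2 is the brightest of them. Tyrobp, an adaptor of myeloid receptors, was at 10.53, 10.39 and 10.22 in BPH and at 9.78, 9.82 and 9.83 in BPH+ghrelin. Its difference of -0.58 did not pass the threshold (limma, adjusted p 0.0702), and those of Cd68 and Lyz2 were smaller (-0.40 and -0.10). Part of these markers in the values of C1q was not tested. Fibroblasts are a source of C1r and C1s, and of 6 fibroblast markers tested 5 had lower values in BPH+ghrelin (median -0.21 against BPH), 1 of which (Lum) was called. Markers of other cells had lower values too, namely 6 of 6 of smooth muscle (median -0.52, Myh11 called), 4 of 5 of endothelium (median -0.31) and 4 of 4 of adipocytes (median -1.17). Of the endothelial markers, Tek passed the filter through the BPH arrays, so it gives no support. Adipocyte markers differed widely within BPH+ghrelin, as Adipoq was at 0.58, 10.88 and 11.94 there and at 11.43, 10.95 and 9.99 in BPH. The summed adipocyte signal of BPH+ghrelin replicate 3 (4321) was above those of all 3 BPH arrays.

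**Figure D2:**
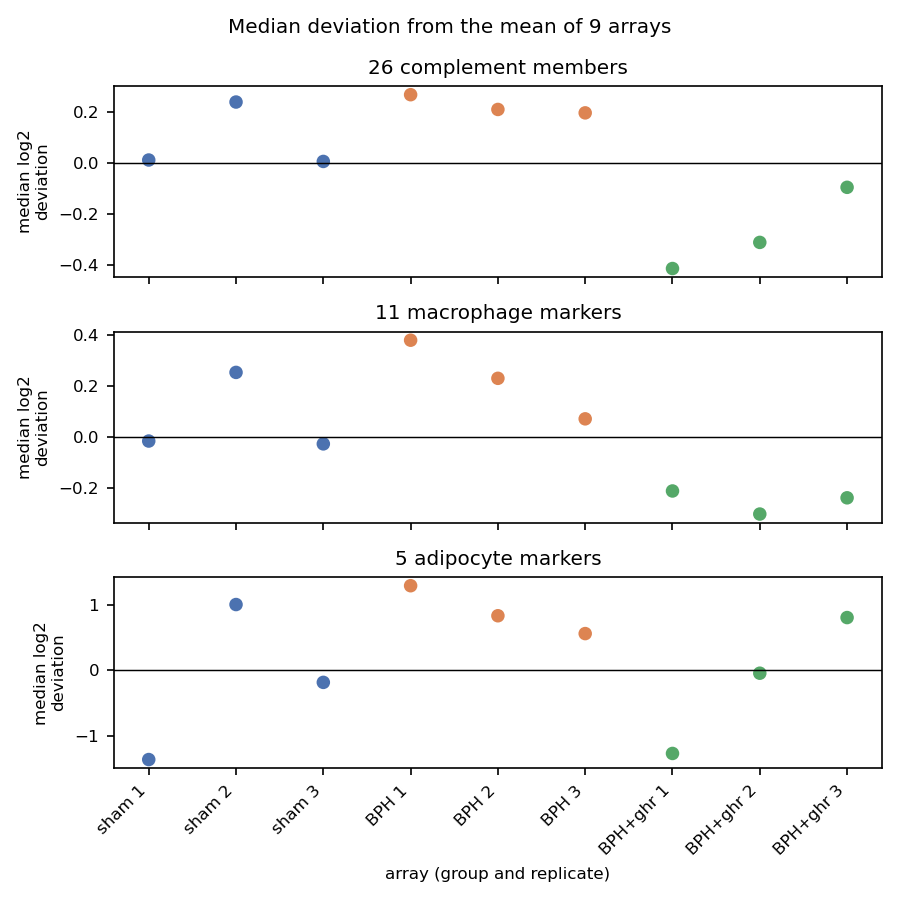
Median deviation (log2) from the mean of 9 arrays for 26 complement genes (top), 11 macrophage markers (middle) and 5 adipocyte markers with a probe (bottom), with 1 point per array. The 3 BPH+ghrelin arrays were the lowest for complement genes (-0.41, -0.31 and -0.10) and for macrophage markers, while adipocyte markers differed most between arrays of the same group.

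As the 5 genes of C1q and its proteases had lower values in BPH+ghrelin than in BPH without overlap (1 of them, C1qa, called), the sequences around their starts (windows of 300 bases from RefSeq, assembly GRCr8, mostly upstream of the start, written 5' to 3' on the strand of the gene) are shown where the table of promoters held them, along with that of Cfi, the gene with the largest difference. Capitals mark matches on either strand to 5 motifs, namely GAGGAA (ETS core, bound by PU.1), the core of the interferon response element (GAAA, any 2 bases, GAAA), TTCNNNGAA (bound by STAT factors), TGTTCT (bound by the androgen receptor) and TTGCNNAA (C/EBP), and matches of different motifs were allowed to overlap.
C1qa, chr5:154419884-154420183, minus strand: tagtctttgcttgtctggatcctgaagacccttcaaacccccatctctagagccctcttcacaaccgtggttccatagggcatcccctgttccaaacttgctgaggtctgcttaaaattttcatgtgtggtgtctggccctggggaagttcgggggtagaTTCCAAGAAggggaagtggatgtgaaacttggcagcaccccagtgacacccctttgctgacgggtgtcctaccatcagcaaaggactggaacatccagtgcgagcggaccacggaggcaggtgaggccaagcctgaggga
C1qb, chr5:154407778-154408077, minus strand: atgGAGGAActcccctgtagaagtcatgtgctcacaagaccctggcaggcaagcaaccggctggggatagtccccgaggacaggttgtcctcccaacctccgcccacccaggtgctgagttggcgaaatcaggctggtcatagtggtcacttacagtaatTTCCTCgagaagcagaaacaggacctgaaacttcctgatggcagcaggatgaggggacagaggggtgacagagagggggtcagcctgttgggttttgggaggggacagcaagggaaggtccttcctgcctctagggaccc
C1r, chr4:159098763-159099062, plus strand: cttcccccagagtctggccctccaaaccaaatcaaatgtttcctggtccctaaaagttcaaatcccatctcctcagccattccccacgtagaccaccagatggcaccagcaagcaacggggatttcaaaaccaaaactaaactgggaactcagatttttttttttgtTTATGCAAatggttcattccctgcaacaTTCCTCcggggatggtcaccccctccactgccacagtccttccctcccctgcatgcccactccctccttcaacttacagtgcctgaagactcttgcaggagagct
Cfi, chr2:221063066-221063365, plus strand: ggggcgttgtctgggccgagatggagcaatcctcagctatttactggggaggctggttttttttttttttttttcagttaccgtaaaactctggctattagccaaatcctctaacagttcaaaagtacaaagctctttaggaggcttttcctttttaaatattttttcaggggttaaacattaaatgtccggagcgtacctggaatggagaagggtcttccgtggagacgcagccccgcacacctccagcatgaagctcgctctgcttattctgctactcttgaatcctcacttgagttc

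The window of C1qa held 1 TTCNNNGAA, that of C1qb held 2 GAGGAA, that of C1r held 1 GAGGAA and 1 TTGCNNAA, and that of Cfi held none of these letters. No motif was found in all of C1qa, C1qb and C1r. Among 33469 promoters of the same length, 27.6% held GAGGAA, 3.92% the interferon response core, 8.87% TTCNNNGAA, 20.7% TGTTCT and 10.6% TTGCNNAA. Of the 19 tested complement genes with a promoter in the table, 5 held GAGGAA, 0 the interferon response core, 4 TTCNNNGAA, 2 TGTTCT and 7 TTGCNNAA. The latter 7 were C1r, C3, C4bpa, C6, C8a, C8b and Fcnb. A match is a description of letters, and binding was not measured.

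Of the lectin pathway, Fcna and Fcnb (ficolins, which recognize sugars on microbes) and Masp1 (a protease bound to them) could be tested. Masp1 was 1 of the 3 complement genes that were higher in BPH+ghrelin than in BPH, along with C4bpb (0.50) and C8b (0.24). Masp1 was at 5.06, 5.42 and 4.99 in sham, at 4.86, 4.97 and 4.84 in BPH, and at 5.48, 5.19 and 5.57 in BPH+ghrelin. All BPH+ghrelin arrays were above all BPH arrays, with a difference of 0.52 (standard error 0.16, 1.43-fold higher, limma, adjusted p 0.132), which did not pass the threshold. Of the 3 probes of Masp1, the other 2 were well above background on 0 arrays. Fcna ranged from 6.29 to 7.58 and Fcnb from 4.33 to 6.19 over the 9 arrays. Their differences between BPH+ghrelin and BPH were -0.36 (95% interval -1.18 to 0.45) and -0.44 (-1.35 to 0.47), respectively. In BPH+ghrelin, Fcna was at 6.31, 6.77 and 7.35, and Fcnb at 4.33, 5.35 and 5.91. Replicate 1 was thus the lowest of this group, while replicate 3 was above all BPH arrays in both genes.

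Genes of the C3 and C5 convertases were C2, C4a, C3, Cfb and Cfp. C2 and C4 form the convertase of the classical and lectin pathways, factor B (Cfb) forms that of the alternative pathway together with C3, and properdin (Cfp) stabilizes the latter. All 5 had lower levels with ghrelin than in BPH (median -0.53), 2 of them without overlap (C2 and Cfp), and 0 were called. Of all genes, 48.3% were lower and 19.3% were lower without overlap. C2 was at 7.23, 7.06 and 7.17 in sham, at 7.89, 7.66 and 7.18 in BPH, and at 6.84, 6.82 and 7.05 in BPH+ghrelin. BPH+ghrelin was lowest without overlap to either group. The difference to BPH was -0.67 (standard error 0.18, 1.60-fold lower, limma, adjusted p 0.104), which was called without BPH replicate 3 at -0.87, and a further probe of C2 gave -0.75. C2 and Cfb are neighbours in the genome.

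C3 was at 5.46, 8.10 and 6.84 in sham, at 6.01, 6.07 and 6.03 in BPH, and at 5.78, 5.93 and 6.19 in BPH+ghrelin. Sham replicate 2 was high, whereas the 6 arrays of BPH and BPH+ghrelin were between 5.78 and 6.19. The differences were -0.76 for BPH against sham (95% interval -2.02 to 0.50) and -0.07 for BPH+ghrelin against BPH (-1.33 to 1.19). Both differences to sham rest on single sham arrays. Without sham replicate 2 they were -0.11 (BPH) and -0.18 (BPH+ghrelin), and without sham replicate 1 they were -1.44 and -1.51 and were called. The neutrophil genes S100a8 (4.06, 7.64 and 6.17 in sham) and S100a9 (4.00, 7.82 and 6.16) had the same order in sham, while Csf3r, Cxcr2 and Elane, the other 3 neutrophil markers with a probe, did not. The summed signal of the 5 was 76.1, 457 and 185 in sham replicates 1, 2 and 3, and 57.3 to 83.7 on the other arrays, and their part in the values of C3 was not tested.

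Cfb was at 10.50, 12.50 and 11.49 in sham, at 11.47, 11.10 and 10.31 in BPH, and at 10.14, 10.40 and 10.76 in BPH+ghrelin. Sham replicate 2 was again the highest array. The difference of BPH+ghrelin was -0.53 to BPH (95% interval -1.66 to 0.61) and -1.06 to sham (-2.19 to 0.07). With 1 array left out, these values were -0.85 (without BPH replicate 3) to -0.27 (without BPH replicate 1) and -1.56 (without sham replicate 1) to -0.56 (without sham replicate 2). C4a was at 11.23, 12.39 and 11.79 in sham, at 12.77, 12.26 and 11.39 in BPH, and at 10.70, 11.50 and 12.07 in BPH+ghrelin. All groups overlapped, and the difference between BPH+ghrelin and BPH was -0.72 (-1.79 to 0.36), and it was -1.09 without BPH replicate 3 and -0.35 without BPH+ghrelin replicate 1. C4a has a near-identical copy, C4b, which had no probe matched, and whether the probe of C4a also detects it is uncertain. Cfp was at 4.63, 4.37 and 4.21 in sham, at 4.90, 4.98 and 4.89 in BPH, and at 4.51, 4.57 and 4.73 in BPH+ghrelin. BPH was highest without overlap (difference to sham 0.52, limma, adjusted p 0.0713, and of BPH+ghrelin to BPH -0.32, adjusted p 0.236), and it was called against sham without sham replicate 1.

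Of the terminal pathway, which inserts the pore into membranes, C6 and C8b were tested in all comparisons and C8a in BPH+ghrelin against sham. C6 was at 9.20, 10.82 and 9.91 in sham, at 9.68, 9.18 and 8.39 in BPH, and at 7.14, 8.61 and 9.40 in BPH+ghrelin. Its levels overlapped between groups and differed widely between arrays of BPH+ghrelin. The difference of BPH+ghrelin to sham was -1.59 (95% interval -3.03 to -0.14, limma, adjusted p 0.173). C8b ranged from 3.60 to 4.20 over the 9 arrays. C8a was well above background on 2 of 3 sham, 0 of 3 BPH and 2 of 3 BPH+ghrelin arrays, at 2.15, 4.58 and 3.60 in sham and 2.24, 3.20 and 3.69 in BPH+ghrelin.

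Among the complement genes tested, the regulators comprised the largest differences in both directions. Compared to BPH, 8 of 9 regulators were lower in BPH+ghrelin (median -0.58), 4 without overlap, and 1 was called. Of all genes, 48.3% were lower, 19.3% were lower without overlap and 0.987% were called lower. Compared to sham, 3 regulators were called lower in BPH+ghrelin (Cfhr4, Cfi and Cd59) and 1 higher (C4bpb), at a share called of 6.29%. In BPH, 1 was called lower than in sham (Cfi), at a share called of 4.34%.

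Cfi encodes factor I, the protease that inactivates C3b and C4b. It was at 6.62, 7.73 and 6.99 in sham, at 5.04, 4.52 and 3.63 in BPH, and at 4.20, 4.21 and 3.89 in BPH+ghrelin. Each sham array was higher than the 6 others, while BPH and BPH+ghrelin overlapped. Cfi was 6.57-fold lower in BPH than in sham (difference -2.72, standard error 0.39, limma, adjusted p 0.0116, n = 3 arrays per group) and 8.10-fold lower in BPH+ghrelin than in sham (difference -3.02, limma, adjusted p 0.00541). The call in BPH was lost without BPH replicate 2 (-2.78, adjusted p 0.0623), without sham replicate 3 (-2.78, adjusted p 0.0518) and without all 3 intermediate arrays (-2.84, adjusted p 0.575), at differences of similar size. It was also lost with slide as a block (-2.93) and with only the 6 arrays compared (-2.73, limma, adjusted p 0.0610). In BPH+ghrelin against sham the call remained in all 6 fits with 1 array left out (-3.27 to -2.71), and it was lost with slide as a block (-3.13, adjusted p 0.0952, which is also the difference within slide 2) and without the 3 intermediate arrays (-3.13, adjusted p 0.319). Between BPH+ghrelin and BPH the difference was -0.30 (95% interval -1.19 to 0.59). Normexp background correction, whose offset shrinks differences of dim probes, gave -1.15 for BPH and -1.22 for BPH+ghrelin against sham, with calls in both. The summed signals of seminal vesicle genes, as given above, and of 9 secretory markers of prostate were also highest in sham, the latter at 362914 to 369000 in sham, 221448 to 236299 in BPH and 184722 to 204177 in BPH+ghrelin. Not all of these markers moved in this way. Of 5 seminal vesicle genes tested in BPH against sham 3 were lower (2 called), and of 8 secretory markers 6 were lower (2 called), while Krt8 was called higher (0.96, limma, adjusted p 0.00908). Part of these cells in the values of Cfi was not tested.

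Cfhr4 was at 9.91, 9.95 and 9.89 in sham, at 10.38, 10.39 and 10.37 in BPH, and at 9.10, 8.91 and 8.74 in BPH+ghrelin. The 3 groups were separated with BPH at the top and BPH+ghrelin at the bottom, and the 3 BPH arrays were within 0.02 of each other. BPH+ghrelin was 2.75-fold lower than BPH (difference -1.46, standard error 0.12, limma, adjusted p 0.00596) and 1.99-fold lower than sham (standard error of the log2 difference 0.12, limma, adjusted p 0.00458), while BPH was 1.38-fold higher than sham (difference 0.47, limma, adjusted p 0.0698). The call against BPH was lost without BPH replicate 2 (-1.46, adjusted p 0.0780), without BPH+ghrelin replicate 2 (-1.46, adjusted p 0.0523) and without all 3 intermediate arrays (-1.45, adjusted p 0.948), and it remained in the 4 other fits with 1 array left out. With slide as a block both calls were lost, at -1.28 to BPH (which is also the difference within slide 1) and -1.10 to sham. BPH exceeded sham by 0.17 in this fit. Cfhr4 has relatives of similar sequence, and whether its probe also detects them is uncertain.

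Clu encodes clusterin, which binds the terminal complex in fluids and acts as a chaperone. It was at 12.58, 11.88 and 12.28 in sham, at 13.43, 13.54 and 13.67 in BPH, and at 12.32, 11.71 and 10.52 in BPH+ghrelin. BPH was highest without overlap, and BPH+ghrelin overlapped with sham and was widely spread. Clu was 4.07-fold lower in BPH+ghrelin than in BPH (difference -2.03, standard error 0.41, limma, adjusted p 0.0569) and 2.47-fold higher in BPH than in sham (difference 1.30, limma, adjusted p 0.103), which did not pass the threshold. Against BPH it was called in 3 of 17 alternatives (normexp, only the 6 arrays compared, and eBayes with trend and robust) and in 0 of 6 fits with 1 array left out (-2.43 to -1.53). Within slide 1 the difference to BPH was -1.22. With slide as a block, the difference of BPH to sham was 0.12 instead of 1.30, in a fit where no slide held both of these groups.

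**Figure D3:**
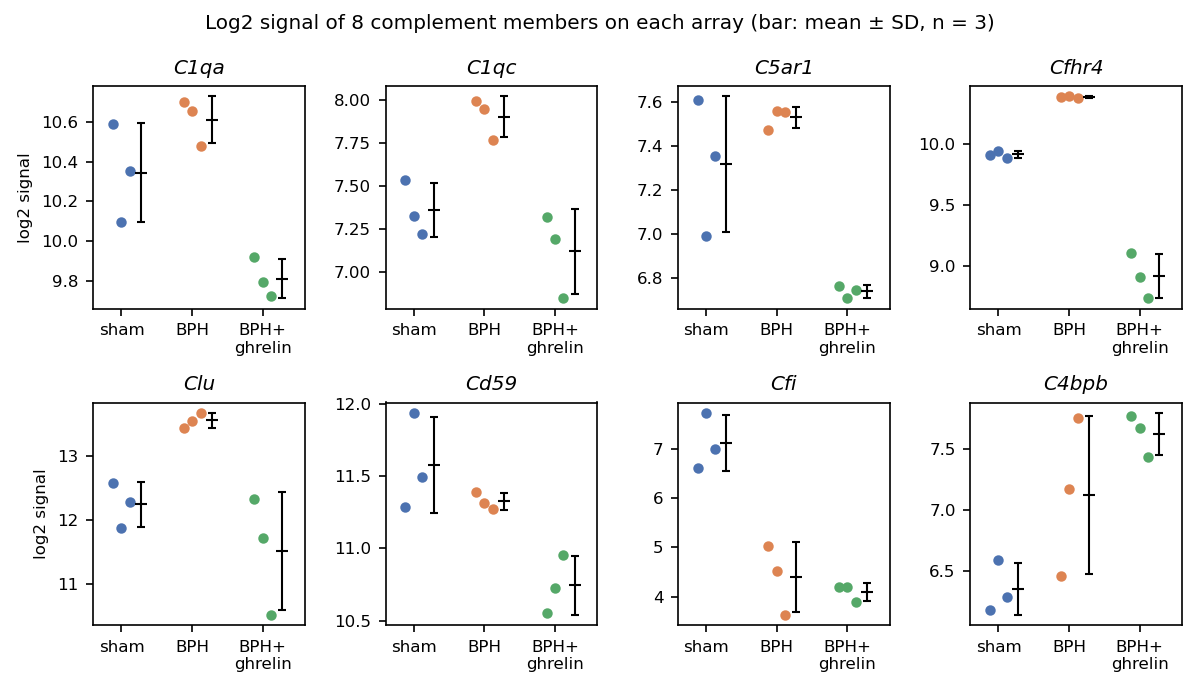
Log2 signal of 8 complement genes on each array (points) by group, with the mean and SD of 3 arrays as bars and axes that do not start at 0. Cfhr4 and Clu were highest in BPH, Cfi was high in sham only, C4bpb was highest in BPH+ghrelin with overlap to BPH, and C1qa, C5ar1 and Cd59 in BPH+ghrelin were below the 6 other arrays.

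Cd59, a membrane protein that blocks the pore, was at 11.29, 11.94 and 11.50 in sham, at 11.39, 11.32 and 11.27 in BPH, and at 10.55, 10.72 and 10.96 in BPH+ghrelin. The 3 BPH+ghrelin arrays were below the 6 others. Cd59 was 1.78-fold lower than in sham (difference -0.83, standard error 0.19, limma, adjusted p 0.0390) and lower than in BPH by less (difference -0.58, standard error 0.19, limma, adjusted p 0.142). The call against sham was lost without each of BPH+ghrelin replicates 1, 2 and 3 (adjusted p 0.122, 0.143 and 0.0622) and without sham replicate 3 (adjusted p 0.119), with differences of -0.97 to -0.65 over all 6 fits. Within slide 2 the difference was -0.78.

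C4bpb encodes the beta chain of C4b-binding protein, and C4bpa its alpha chain. C4bpb was at 6.18, 6.59 and 6.29 in sham, at 6.46, 7.17 and 7.75 in BPH, and at 7.77, 7.67 and 7.43 in BPH+ghrelin. BPH+ghrelin was above sham without overlap, and BPH was spread over the range of both. BPH+ghrelin exceeded sham 2.42-fold (difference 1.28, standard error 0.30, limma, adjusted p 0.0453), and this call was lost without each of 5 arrays, namely BPH+ghrelin replicates 1, 2 and 3 (adjusted p 0.136, 0.154 and 0.0873) and sham replicates 1 and 3 (adjusted p 0.0728 and 0.147), with differences of 1.19 to 1.39. Within slide 2 it was 1.17. The difference of BPH+ghrelin to BPH (0.50) was 0.16 without BPH replicate 1 and 0.81 without BPH replicate 3. C4bpa did not follow C4bpb, as it was at 1.57, 4.86 and 3.37 in sham, at 3.54, 3.67 and 3.89 in BPH, and at 0.57, 3.47 and 4.64 in BPH+ghrelin, and was the gene with the widest spread in sham (3.29) and in BPH+ghrelin (4.07). C4bpa was well above background on 7 of 9 arrays.

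Cd55, which dissociates convertases on membranes, was at 15.69, 15.40 and 15.61 in sham, at 15.56, 15.58 and 15.91 in BPH, and at 15.44, 15.62 and 15.62 in BPH+ghrelin. All groups overlapped, and the differences were 0.12 for BPH against sham (95% interval -0.22 to 0.45) and -0.13 for BPH+ghrelin against BPH (-0.47 to 0.21). The sign of the first turned with scaling to the 75th percentile (-0.42), and so did that of the latter (0.33). A further, dimmer probe of Cd55 gave 0.73 for BPH against sham and -0.20 for BPH+ghrelin against BPH. Cd46 ranged from 3.44 to 4.57 over the 9 arrays, with a difference of -0.18 between BPH+ghrelin and BPH. Vtn (vitronectin) ranged from 3.30 to 5.29, with a difference of -0.67 (95% interval -1.68 to 0.33).

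The receptors were C3ar1 and C5ar1, the receptors for the anaphylatoxins C3a and C5a on myeloid cells, and Cd93, a protein of endothelium and myeloid cells that was first described as a receptor for C1q. All 3 had lower levels with ghrelin than in BPH without overlap (19.3% of all genes did), and 0 were called. This count includes C3ar1, which passed the filter through the BPH arrays alone and gives no support to it. C5ar1 was at 7.61, 6.99 and 7.35 in sham, at 7.47, 7.56 and 7.55 in BPH, and at 6.76, 6.71 and 6.75 in BPH+ghrelin. The 3 BPH+ghrelin arrays were close together and below the 6 others. C5ar1 was 1.73-fold lower than in BPH (difference -0.79, standard error 0.16, limma, adjusted p 0.0569) and 1.49-fold lower than in sham (difference -0.58, limma, adjusted p 0.0713), and the difference to sham was called without sham replicate 2, at -0.74. C3ar1 was at 3.21, 2.49 and 3.38 in sham, at 3.64, 3.77 and 3.68 in BPH, and at 2.07, 2.88 and 1.61 in BPH+ghrelin. As it was well above background on 2 of 3 sham, 3 of 3 BPH and 0 of 3 BPH+ghrelin arrays, only a bound can be given, and it was at least 1.93-fold lower in BPH+ghrelin than in BPH (limma, adjusted p 0.0708). It passed the filter through the BPH arrays alone, so this p is no support, and normexp gave a difference of -0.13 (adjusted p 0.217). Cd93 ranged from 8.58 to 9.36, with a difference of -0.30 (95% interval -0.71 to 0.10). Markers of macrophages, which carry C3ar1 and C5ar1, had mostly lower values in BPH+ghrelin than in BPH, as given above, with overlap of their summed signal, and their part in the values of the receptors was not tested.

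**Figure D4:**
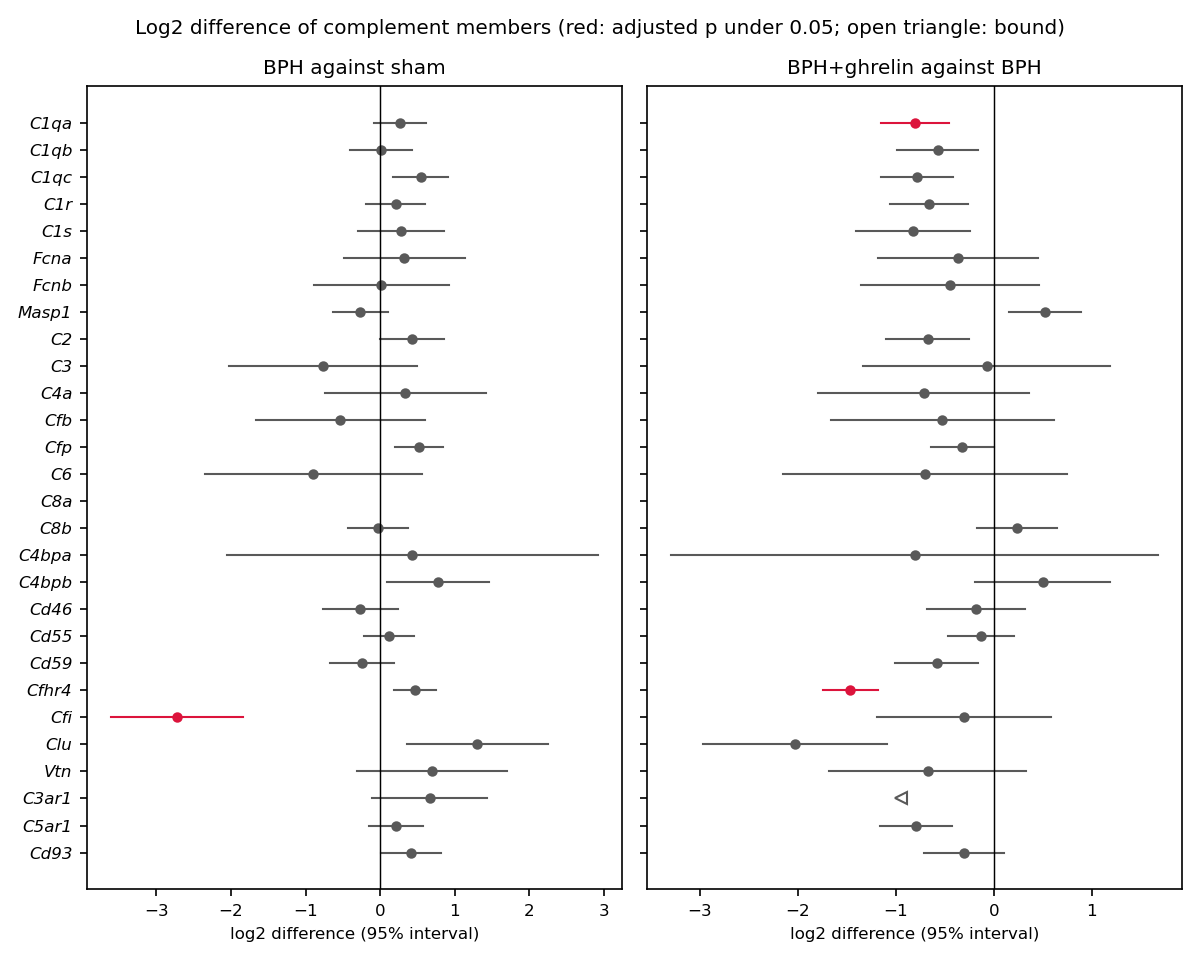
Log2 difference (points) with 95% intervals (lines) of each complement gene tested, for BPH against sham (left) and BPH+ghrelin against BPH (right), with genes called by limma (adjusted p under 0.05) in red. Cfi was called on the left (-2.72) and C1qa (-0.80) and Cfhr4 (-1.46) on the right, where 23 of 26 points are below 0. The open triangle is the bound for C3ar1, whose probe was too dim on all 3 BPH+ghrelin arrays.

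Of 22 further complement genes outside the 37, 19 had a probe and 9 were tested in each comparison. Of these, 1 was called, Cr1l, which encodes the rat membrane regulator Crry that protects cells like Cd55 and Cd46 do. Cr1l was at 12.20, 11.88 and 12.08 in sham, at 12.98, 12.89 and 12.59 in BPH, and at 11.83, 12.12 and 12.26 in BPH+ghrelin. BPH was highest without overlap, and sham and BPH+ghrelin overlapped. It was 1.70-fold higher in BPH than in sham (difference 0.77, standard error 0.17, limma, adjusted p 0.0448) and 1.68-fold lower in BPH+ghrelin than in BPH (difference -0.75, limma, adjusted p 0.0711). The call was lost without BPH replicates 1, 2 and 3 (adjusted p 0.0956, 0.186 and 0.0666) and without sham replicates 2 and 3 (adjusted p 0.0690 and 0.138), at differences of 0.68 to 0.88, and also without the 3 intermediate arrays (0.75, adjusted p 0.708). In both comparisons of BPH+ghrelin 0 of the 9 genes were called by limma, while 2 genes had lower values at an unadjusted p under 0.05 in each, which were Serping1 and Cr1l against BPH (compared to 10.4% of all genes) and Serping1 and Itgb2 against sham (compared to 10.2%). Serping1, the inhibitor of C1r and C1s, ranged from 10.51 to 11.93, and its difference between BPH+ghrelin and BPH was -0.71 (95% interval -1.23 to -0.19, limma, adjusted p 0.141). Cfd (factor D, also known as adipsin from fat cells) ranged from 8.75 to 12.40, with a difference of -0.65 (-2.73 to 1.44). It was at 11.54, 11.23 and 10.81 in BPH and at 8.75, 10.97 and 11.91 in BPH+ghrelin. Replicate 1 of BPH+ghrelin was thus below and replicate 3 above all BPH arrays. The differences of C1qbp, Colec12, Ptx3, Susd4 and Calr between BPH+ghrelin and BPH lay between -0.38 and 0.36. The median difference of the 9 genes was 0.04, -0.36 and -0.03 in BPH against sham, BPH+ghrelin against BPH and BPH+ghrelin against sham, respectively.

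Within groups, the spread of complement genes was close to that of all genes in sham, narrower in BPH and wider in BPH+ghrelin. The median range over 3 arrays was 0.61 in sham (0.61 for all genes), 0.23 in BPH (0.33) and 0.40 in BPH+ghrelin (0.33). In sham and BPH+ghrelin, several complement genes had the same order of arrays as markers of fat cells, whose summed signal (5 markers with a probe) was 105, 4643 and 1643 in sham, 3323, 2394 and 1244 in BPH, and 61.4, 2091 and 4321 in BPH+ghrelin. The array order of sham (replicates 1, 3 and 2 from low to high) and of BPH+ghrelin (1, 2 and 3) was shared by 11 of 26 complement genes (42.3%), compared to 18.7% of 20108 genes, namely C1r, C1s, C3, C4a, C4bpa, C6, Cfb, Cd59, Cd93, Fcna and Fcnb. With the order of BPH (3, 2 and 1) required as well, 5 of 26 remained (19.2%, compared to 7.61% of all genes), namely C1r, C4a, C6, Cfb and Cd59, while C4bpa and Cd93 had the opposite order in BPH. This order was looked at after values had been seen, and it is given as a description, and the part of fat tissue in the values of these genes was not tested. C1qa, C1qb, C1qc, Cfhr4, Clu, Cfi and C5ar1 did not have this order.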

How the data were processed

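Prostates of 9 rats (3 sham, 3 BPH, 3 BPH+ghrelin) had been measured with Agilent one-colour rat arrays (Cy3), and groups and replicates were taken from the sample labels. The intensities deposited by the authors are signals from Feature Extraction 11.0.1.1 after subtraction of background, not normalized between arrays. The flags deposited by the authors mark outlier spots and spots well above background. Quantile-normalized log2 values are also found in a matrix that the authors deposited, whose centring is not stated (column medians 5.26, and all 9 columns resembled their own array the most). It was used as an alternative only.

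Spots with an outlier flag were excluded and the spots of a probe averaged. This left no spot on some array for 11 of 30367 probes, which were excluded. Of 30356 probes, 17998 (59.3%) were matched by accession to 15163 symbols (RefSeq, assembly GRCr8). The log2 signals were quantile normalized over 9 arrays. To be tested, a probe had to be flagged as well above background on 3 or more of the 6 arrays in a comparison, and the brightest such probe on average stood for its gene. Each array had 44254 spots, and of the 42877 that were not controls 0 were saturated. The number of arrays limits the precision. The symbol Cd59 was matched as a synonym of Cd59b.

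The 3 groups were compared with limma 3.58.1 in R 4.3.3 (lmFit and eBayes, 9 arrays) with Benjamini-Hochberg adjustment over all genes tested. A call is an adjusted p under 0.05. An exact permutation test (two-sided) of 3 against 3 cannot give a p under 0.1. The procedure was tested on simulated data, the outcome of which is not reported here. Described with every array were genes called, genes at least 2-fold apart without overlap, and genes set by role, and Masp1, Cfp, C6, C8a and C4bpa were added after their values had been seen. Genes, lists and alternatives were chosen with earlier results of these data known. As alternatives, the 75th percentile of each array for scaling was used, normexp (offset 50, on median signals, as a mean signal was not used here), no filter or a filter on all 6 arrays, a fit of only 6 arrays, averaged probes per gene, replicate number or slide as a block, the matrix of the authors, trended and robust eBayes, leaving out single arrays, other criteria and, added later, leaving out the 3 intermediate arrays. 1 further complement gene is not reported here. Human tissues, cultured cells and organ baths of the study are not analysed here.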

Additional observations from a re-analysis of the deposited data

How the results depend on the processing

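In BPH against sham, the number of complement genes called was 1, and it was 2 with normexp (1 higher, 1 lower), 0 with only 6 arrays, with slide as a block or without the 3 intermediate arrays, 0 to 4 with 1 array left out, 8 at an unadjusted p under 0.05 and 2 at a 2-fold difference. For BPH+ghrelin against BPH it was 2, and it was 4 with scaling to the 75th percentile, 5 with normexp, 1 without a filter, 9 with only 6 arrays, 1 with the mean of probes, 0 with slide or without the 3 intermediate arrays, 13 at an unadjusted p under 0.05, and 0 to 2 with 1 array left out. For BPH+ghrelin against sham it was 4, and it was 2 without a filter, 0 with slide or without the 3 intermediate arrays, 9 at an unadjusted p under 0.05, and 2 to 6 with 1 array left out. With scaling to the 75th percentile, 3 genes were called, all lower (main 3 lower, 1 higher). The cause was not tested. Over all genes, calls moved from 849, 293 and 1207 to 2, 2 and 85 with slide, to 3, 0 and 2 without the 3 intermediate arrays, and to 181, 2106 and 903 with only the 6 arrays compared. They were 897, 515 and 1327 with scaling to the 75th percentile and 1015, 400 and 1225 with normexp. Without a filter (26905 genes tested) they were 533, 188 and 805, and with the mean of probes 810, 268 and 1182. With 1 array left out they ran from 119 to 3068, from 3 to 396 and from 226 to 1927. The 4 complement genes called in BPH against sham were found without sham replicate 1, where 3068 of all genes were called. The 6 in BPH+ghrelin against sham were found without sham replicate 2, where 1927 of all genes were called. Of the 8 complement genes at an unadjusted p under 0.05 in BPH against sham 1 was lower. No share over all genes is given for these 8 or for the 2 at a 2-fold difference. Neither count is therefore read as a result about complement genes. Of the 13 in BPH+ghrelin against BPH 12 were lower (10.4% of all genes) and 1 was higher (10.7%). Of the 9 in BPH+ghrelin against sham 8 were lower (10.2% of all genes).

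The median of complement genes in BPH against sham (0.27) was 0.14 with normexp and 0.12 to 0.30 with 1 array left out. That of BPH+ghrelin against BPH (-0.58) was -0.27 with normexp, -0.74 with slide, and -0.71 to -0.35 with 1 array left out. That of BPH+ghrelin against sham (-0.43) was -0.23 with normexp and -0.57 to -0.26 with 1 array left out. Scaling to the 75th percentile moved the median of all genes in BPH against sham from 0.04 to -0.09.

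Signs turned for differences near 0. In BPH against sham, C1qb (0.01) was -0.12 with the 75th percentile, -0.0348 with normexp and -0.15 to 0.18 with 1 array left out, Cd55 was -0.42 with the 75th percentile, and Cd59 was 0.0022 with slide. In BPH+ghrelin against BPH, Cd55 was 0.33 with the 75th percentile, and with 1 array left out Cfi was -0.68 to 0.019 and C3 -0.18 to 0.023. In BPH+ghrelin against sham, Cd55 was 0.0076 with normexp, 0.26 with the mean of probes, 0.071 with slide and -0.10 to 0.052 with 1 array left out, and Cr1l was -0.077 to 0.14.

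Replicate numbers did not pair the arrays, as same-numbered arrays correlated at -0.14 to 0.26 and 3 of 9 arrays correlated best with their own number. With the replicate block, complement genes called were 1, 1 and 2 in BPH against sham, BPH+ghrelin against BPH and BPH+ghrelin against sham. Over all genes, the calls were 242, 20 and 462 in the same order.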
